A study of Homo sapiens with 3 samples.

Results

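The BCL2 family and the inhibitors of apoptosis (IAPs) were examined through 10 genes, BCL2, BCL2L1, MCL1, BAX, BAK1, BCL2L11, BID, PMAIP1, XIAP and BIRC2, out of 19775 genes on the array. They were chosen by name, and every probe set paired with exactly 1 of these symbols was used, which gave 37 of 41097 such probe sets. A probe set is a group of short probes on the array read as 1 value. BCL2L11 and XIAP had 7 probe sets each, MCL1 had 6, BCL2 and BCL2L1 had 4 each, BID had 3, BAX and PMAIP1 had 2 each, and BAK1 and BIRC2 had 1 each.

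Proteins of the BCL2 family decide whether the outer membrane of the mitochondrion is breached during apoptosis. The guardians BCL2, BCL-XL (the long product of BCL2L1) and MCL1 hold the pore-forming effectors BAX and BAK in check, and the BH3-only proteins BIM (BCL2L11), BID and NOXA (PMAIP1) bind the guardians or, for BIM and BID, activate the effectors. Once cytochrome c leaks out and caspases are activated, XIAP blocks the active caspases directly, while cIAP1 (BIRC2) is a ubiquitin ligase that mainly controls signalling from tumour necrosis factor receptors.

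The cells were MDA-MB-231, an established human breast cancer line usually classed as lacking oestrogen receptor alpha (ERα), and total RNA was read on Affymetrix HG-U133 Plus 2 arrays. The 3 arrays came from cells treated with estradiol at 1 µM, with ERα17p at 1 µM, and with 0.1% ethanol as vehicle. ERα17p is a short peptide whose sequence comes from ERα. The labels give an ethanol content for the vehicle alone, and do not state what the peptide was dissolved in. Before a treatment of 3 h, all cells were held for 4 h in 10% serum stripped of steroids with charcoal. With 1 array a group there is no replicate and no test, so each value describes these 3 arrays, and their number limits the precision.

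The deposited log2 values had been shifted so that each probe set is measured from its own reference level, and how that level was set is not described. A value of 0 therefore means that level, not an absent transcript, and levels cannot be compared between genes or probe sets. For the same reason the label of the cell line could not be checked against its markers, and whether a probe set was above background is unknown. In bulk RNA, fewer cells of a kind and less RNA per cell cannot be told apart.

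The vehicle array stood apart from the treated arrays in the added control RNAs. Relative to vehicle, the labelling spikes, which are bacterial RNAs foreign to the cells, stood at 2.03 with estradiol and 2.04 with ERα17p (log2, medians of 27 probe sets). Hybridisation spikes, added at a later step, were lower by the same comparisons, at -0.74 and -0.93 (18 probe sets). The standard deviation over the member probe sets was 0.226 on the estradiol array, 0.280 on the ERα17p array and 0.712 on the vehicle array, against 0.257, 0.240 and 0.489 over all probe sets with 1 symbol. In 9 of the 10 members the vehicle value was the farthest of the 3 from the reference level, as it was in 46.7% of all genes. BCL2 was the exception. The gap between 3' and 5' probe sets of ACTB, a sign of RNA quality, differed from vehicle by -0.38 with estradiol and by 0.20 with ERα17p, so the treated arrays lay on either side of the vehicle array, 0.58 apart. For GAPDH these values were -0.07, 0.02 and 0.09. Of 5 markers of mesenchymal-like breast lines, SNAI2 was higher in both comparisons, by 1.84 and 2.08 on 1 probe set. As high or higher were 0.698% and 0.379% of all genes. ZEB1 was at 0.35 and 0.61 and CD44 at 0.54 and 0.58, while VIM was at -0.23 and -0.17 and AXL at -0.10 and -0.22. Of 6 markers of luminal epithelium EPCAM was at 0.78 and 0.43. In each comparison 4 of the 6 were above vehicle and 2 below. Apart from SNAI2, ZEB1 and EPCAM, the genes of both lists lay within 1.5-fold, as did the 3 blood cell markers with a probe set. The part of these features in the differences from vehicle was not tested.

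Members were called at a difference of at least 1.5-fold, using for each gene the median over its probe sets of the log2 difference. Against vehicle, XIAP and PMAIP1 were higher and BAX was lower on the estradiol array, and the same 3 genes passed that fold on the ERα17p array in the same directions. That is 2 of 10 members higher for estradiol beside 10.6% of all genes, and 1 of 10 lower beside 8.42%. For ERα17p it is 2 of 10 higher beside 9.56% of all genes and 1 of 10 lower beside 8.82%. Each extra gene moves the share of a list this short by 10 percentage points, so the counts do not set the members apart from the array as a whole. The 2 comparisons share the vehicle array and are not independent of each other.

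The members' median difference was 0.04 for estradiol, with a range of -0.61 to 1.27, and 0.01 for ERα17p, with a range of -0.60 to 1.40. The median of all genes was 0.00 in both comparisons. XIAP alone reached 2-fold, which 3.94% of all genes did upward for estradiol and 3.34% for ERα17p; no member was 2-fold lower, beside 2.18% and 2.48% of all genes. By probe set, 11 of 37 were at least 1.5-fold higher for estradiol and 6 lower, beside 14.1% and 11.4% of all probe sets. For ERα17p, 11 were higher and 8 lower, beside 13.1% and 11.0%. Probe sets of 1 gene read the same RNA sample and are not replicates.

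**Figure D1:**
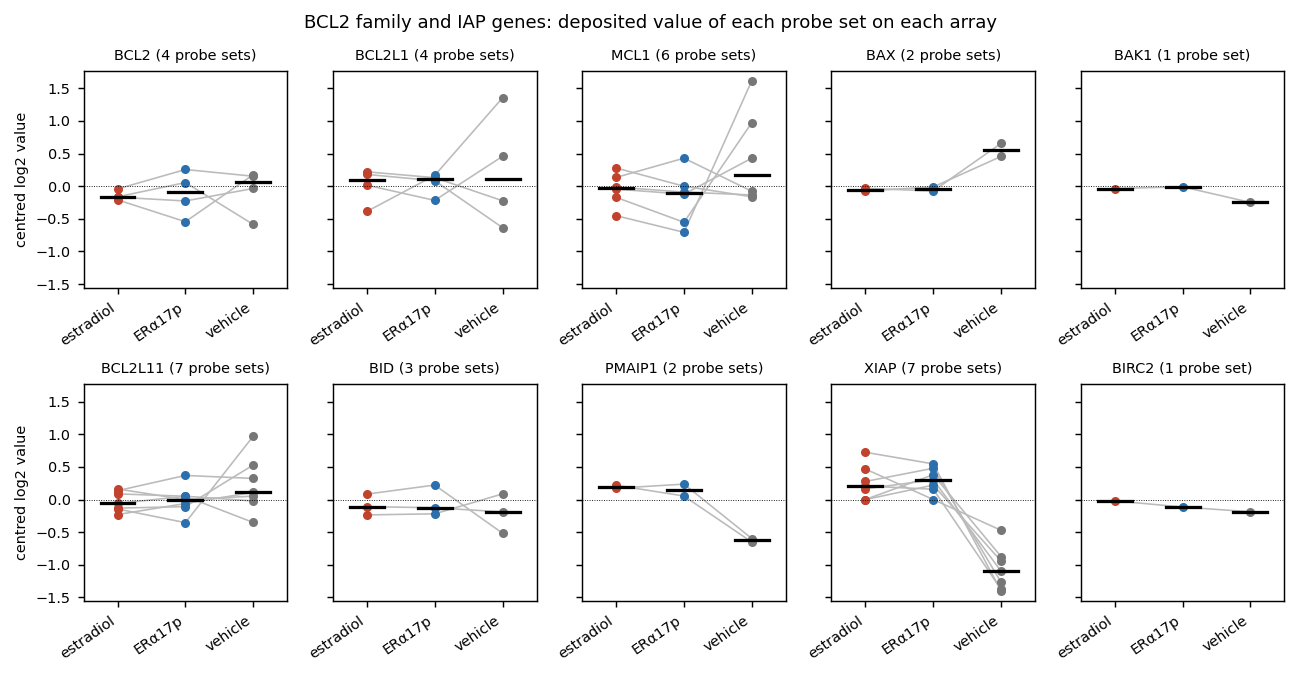
Centred log2 value (vertical axis) of every member probe set on the estradiol, ERα17p and vehicle arrays; grey lines join a probe set's values, coloured points are probe sets and black bars their median per array. The 7 XIAP probe sets lie at or above 0 on the treated arrays and between -1.40 and -0.47 on the vehicle array, while those of MCL1 and BCL2L1 spread in both directions on the vehicle array.

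Among the IAPs, XIAP was the member farthest from vehicle. Its 7 probe sets lay between 0.00 and 0.72 on the estradiol array, with a median of 0.21. On the ERα17p array they lay between 0.00 and 0.55, with a median of 0.30, and on the vehicle array between -1.40 and -0.47, with a median of -1.10. Each probe set is measured from its own reference level, so these ranges do not compare 1 probe set with another. The probe sets are also not replicates. The gene difference was 1.27 for estradiol (2.40-fold) and 1.40 for ERα17p (2.64-fold).

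All 7 XIAP probe sets were higher than vehicle in both comparisons. The probe set with the largest difference stood at 0.72 with estradiol, 0.55 with ERα17p and -1.40 with vehicle, a difference of 2.13 for estradiol and 1.95 for ERα17p. The 6 others differed by 0.88 to 1.58 for estradiol and by 0.47 to 1.75 for ERα17p. Some XIAP probe sets, including the one with the largest difference, are marked as possible matches to several transcripts. Without those marked, XIAP was at 0.94 for estradiol and 1.17 for ERα17p. For estradiol every XIAP probe set passed 1.5-fold, which held for 5 of the 1337 genes with 5 or more probe sets (0.374%). For ERα17p the probe set at 0.47 fell short of 1.5-fold, and a gene with all of them past it was seen in 0.299% of these genes; 9.05% had every probe set above 0, as did 6.88% for estradiol. Over all genes, 2.15% were as high as XIAP or higher for estradiol and 1.32% for ERα17p. Read from the reference level of the deposited values instead of from vehicle, XIAP was at 0.21 with estradiol and 0.30 with ERα17p, both short of 1.5-fold.

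BIRC2 differed little between the arrays. Its 1 probe set read -0.02 with estradiol, -0.12 with ERα17p and -0.19 with vehicle. Its differences from vehicle were 0.17 for estradiol and 0.07 for ERα17p, and 32.9% and 41.9% of all genes were as high or higher. With 1 probe set, disagreement within BIRC2 cannot be seen.

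Among the BH3-only genes, PMAIP1 was higher on both treated arrays. NOXA, its product, binds MCL1 and promotes its removal. The 2 probe sets read 0.17 and 0.22 with estradiol, 0.24 and 0.05 with ERα17p, and -0.60 and -0.65 with vehicle. The gene difference was 0.82 for estradiol (1.77-fold) and 0.77 for ERα17p (1.71-fold), and 5.83% and 5.80% of all genes were as high or higher. Both probe sets passed 1.5-fold, as they did in 5.36% of the 5015 genes with 2 probe sets for estradiol and 4.73% for ERα17p. Against the reference level PMAIP1 stood at 0.20 and 0.14.

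BCL2L11, which encodes BIM, had probe sets on both sides of vehicle. Over its 7 probe sets the median was -0.06 with estradiol, 0.00 with ERα17p and 0.11 with vehicle, and the gene difference was -0.19 for estradiol and -0.05 for ERα17p. For estradiol 3 of the 7 were higher than vehicle and 4 lower, from 0.29 down to -1.12, and for ERα17p the split was again 3 and 4, from 0.40 to -1.33. The probe set with the largest difference read -0.14 with estradiol, -0.35 with ERα17p and 0.97 with vehicle, and it was the same one in both comparisons. The gene is known to give several spliced forms of BIM, but the sources used here do not say which form each probe set reads.

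BID is cut by caspase 8 into an active fragment, which links death receptors to the mitochondrion. Its 3 probe sets read 0.08, -0.11 and -0.24 with estradiol, 0.22, -0.13 and -0.22 with ERα17p, and -0.52, -0.19 and 0.09 with vehicle. The arrays overlapped. The gene difference was 0.08 for estradiol and 0.06 for ERα17p, and the single probe sets differed from vehicle by -0.32 to 0.60 for estradiol and by -0.31 to 0.74 for ERα17p. In both comparisons 2 of the 3 were higher than vehicle, at 0.60 and 0.08 for estradiol and at 0.74 and 0.06 for ERα17p. The one with the larger difference is the only BID probe set not marked as a possible match to several transcripts, so BID passed 1.5-fold when marked probe sets were left out. BCL2L11 did not pass it then, and PMAIP1, whose probe sets are both marked, had no value.

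Of the pore-forming effectors, BAX was lower on both treated arrays and BAK1 was not. The 2 BAX probe sets read -0.03 and -0.07 with estradiol, -0.07 and -0.01 with ERα17p, and 0.66 and 0.46 with vehicle. Both probe sets were below vehicle in both comparisons. The gene difference was -0.61 for estradiol (1.53-fold lower) and -0.60 for ERα17p (1.52-fold lower), and 7.72% and 8.41% of all genes were as low or lower.

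Having both probe sets below vehicle was common, at 30.3% of genes with 2 probe sets for estradiol and 30.0% for ERα17p. BAX was also close to the 1.5-fold line of 0.585 on the log2 scale: after quantile normalisation, which gives the 3 arrays 1 distribution, its difference was -0.45 in both comparisons and it was no longer called. Against the reference level BAX stood at -0.05 and -0.04. BAK1, the partner effector that sits in the mitochondrial membrane, read -0.04 with estradiol, -0.01 with ERα17p and -0.25 with vehicle on its 1 probe set. Its differences of 0.21 and 0.24 were on the other side of vehicle from BAX.

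None of the 3 guardian genes passed 1.5-fold as a gene, but the differences of the MCL1 and BCL2L1 probe sets from vehicle had the widest ranges of all 10 members. MCL1 encodes a short-lived guardian that many cancer lines need for survival. Its 6 probe sets had a median of -0.03 with estradiol, -0.11 with ERα17p and 0.18 with vehicle, and the gene difference was -0.18 for estradiol and -0.25 for ERα17p. Of the 6, 3 were higher than vehicle and 3 lower in both comparisons.

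The low MCL1 differences came mainly from 2 probe sets. The first read -0.17 with estradiol, -0.55 with ERα17p and 0.98 with vehicle, and the second -0.45, -0.71 and 1.62. Their differences were -1.15 and -2.07 for estradiol and -1.53 and -2.33 for ERα17p, so the second was the lowest of the 37 member probe sets in both comparisons. The 4 other MCL1 probe sets differed by -0.47 to 0.44 for estradiol and by -0.55 to 0.51 for ERα17p. MCL1 is spliced into a long guardian form and a short form that promotes death, and the probe sets' targets within the gene are not given here, so the spread cannot be assigned to either.

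BCL2L1 gives the guardian BCL-XL and, by another splice site, the death-promoting BCL-XS. Its 4 probe sets read 0.18, 0.02, 0.22 and -0.39 with estradiol, 0.08, -0.22, 0.13 and 0.17 with ERα17p, and -0.63, 0.46, -0.22 and 1.36 with vehicle. In both comparisons 2 of the 4 were higher than vehicle and 2 lower. The probe sets differed from vehicle by 0.82, -0.44, 0.44 and -1.74 for estradiol and by 0.72, -0.68, 0.35 and -1.19 for ERα17p, and the gene difference was 0.00 and -0.16.

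Those 2 genes depended on which probe sets were used. Without probe sets whose names mark a possible match to several transcripts, BCL2L1 was at -1.09 for estradiol and -0.93 for ERα17p, on 2 probe sets. MCL1 was then at -1.15 and -1.53, on 3 probe sets. Both genes then counted as lower, while BCL2 was at 0.14 and 0.23.

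BCL2 itself, named from the translocation of B-cell lymphoma, had 4 probe sets that read -0.21, -0.16, -0.17 and -0.04 with estradiol, -0.54, 0.06, -0.23 and 0.26 with ERα17p, and 0.18, -0.59, -0.03 and 0.15 with vehicle. The gene difference was -0.16 for estradiol and -0.04 for ERα17p. For ERα17p 1 probe set was 0.72 lower on the log2 scale and another was 0.64 higher, both past 1.5-fold. No BCL2 probe set passed that fold for estradiol.

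**Figure D2:**
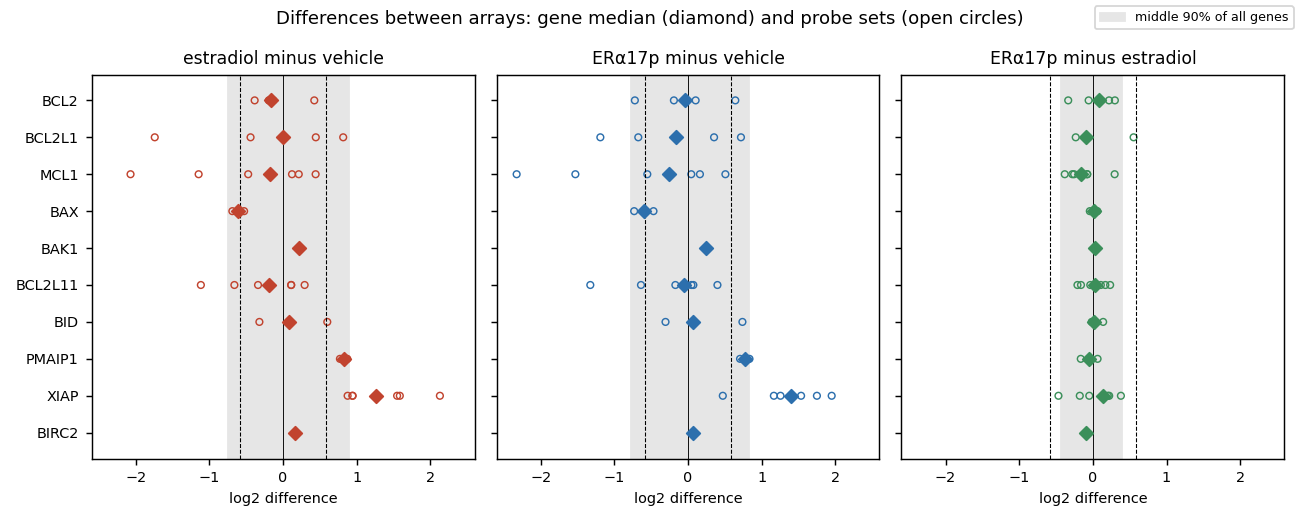
Log2 difference (horizontal axis) of each member in 3 comparisons; diamonds are gene medians, open circles single probe sets, dashed lines 1.5-fold and grey bands the middle 90% of all 19775 genes. XIAP lies to the right of the band in both comparisons with vehicle, PMAIP1 and BAX lie inside it, and in the comparison of ERα17p with estradiol all diamonds lie close to 0.

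The promoters of the 3 called members are shown to set their sequence beside their direction. Each runs from 250 bases before the first annotated start of the gene to 50 after it, on the plus strand of GRCh38.p14, from RefSeq: XIAP at chrX:123859458-123859757, PMAIP1 at chr18:59899746-59900045 and BAX at chr19:48954625-48954924. RefSeq lists 3 starts for XIAP, of which the first is shown. Capitals mark the Sp1 box GGGCGG, the E-box CACGTG and the oestrogen response element core GGTCA, on either strand.
XIAP: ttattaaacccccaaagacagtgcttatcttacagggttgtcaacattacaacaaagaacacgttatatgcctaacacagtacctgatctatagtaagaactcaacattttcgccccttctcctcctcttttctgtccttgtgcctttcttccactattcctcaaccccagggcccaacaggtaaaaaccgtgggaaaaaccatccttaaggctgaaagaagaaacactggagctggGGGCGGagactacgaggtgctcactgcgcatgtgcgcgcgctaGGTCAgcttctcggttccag
PMAIP1: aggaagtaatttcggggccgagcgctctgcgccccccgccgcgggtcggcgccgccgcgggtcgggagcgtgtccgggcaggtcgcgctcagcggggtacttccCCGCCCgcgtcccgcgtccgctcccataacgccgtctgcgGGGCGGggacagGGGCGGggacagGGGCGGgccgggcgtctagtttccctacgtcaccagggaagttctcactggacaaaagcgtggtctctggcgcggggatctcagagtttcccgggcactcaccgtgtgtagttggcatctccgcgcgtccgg
BAX: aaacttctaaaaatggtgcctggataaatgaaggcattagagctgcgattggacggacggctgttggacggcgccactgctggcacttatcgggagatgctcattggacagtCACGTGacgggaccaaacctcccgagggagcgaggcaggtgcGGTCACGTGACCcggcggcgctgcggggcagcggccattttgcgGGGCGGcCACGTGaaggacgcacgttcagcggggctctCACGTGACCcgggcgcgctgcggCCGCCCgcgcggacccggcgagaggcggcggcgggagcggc

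The XIAP window held 1 Sp1 box and 1 GGTCA core and was 48% G and C. The PMAIP1 window held 4 Sp1 boxes, no E-box and no GGTCA core, at 71.3% G and C, and the BAX window held 4 E-boxes, 2 Sp1 boxes and 3 GGTCA cores, at 67.3%. All 3 cores in BAX overlapped with an E-box, since the letters run together there. Of 35116 promoter windows of this length, 45.0% held the Sp1 box, 37.4% the GGTCA core and 7.26% the E-box. The AP-1 site TGACTCA, present in 4.95%, was in none of the 3. A match is a run of letters and says nothing of whether a factor binds.

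Set directly against estradiol, ERα17p gave no member at 1.5-fold or more in either direction, beside 1.29% of all genes higher and 2.04% lower. This comparison leaves the vehicle array out. The gene differences ran from -0.17 in MCL1 to 0.14 in XIAP, with a median of 0.01, against -0.01 for all genes. XIAP's median was 0.30 with ERα17p and 0.21 with estradiol, with 4 of its 7 probe sets higher with ERα17p and 3 lower. BAX was at -0.04 with ERα17p and -0.05 with estradiol.

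No member probe set passed 1.5-fold between the treated arrays, where 3.61% of all probe sets were higher and 3.27% lower. The largest gaps were in a BCL2L1 probe set, 0.17 with ERα17p and -0.39 with estradiol, and in an XIAP probe set, 0.00 with ERα17p and 0.47 with estradiol. In MCL1 5 of 6 probe sets were lower with ERα17p, by up to 0.38 on the log2 scale. The middle 90% of all genes spanned a narrower range here than in either comparison with vehicle, so a small gap between members was the usual case. Without replicates this does not show that the hormone and the peptide act alike on these genes.

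The rest of the pathway was read through a list of 34 genes, of which 29 had a probe set with 1 symbol. For estradiol 4 of the 29 were at least 1.5-fold higher and 0 lower, and for ERα17p 5 were higher and 3 lower. These are shares of 13.8% and 0% for estradiol, beside 10.6% and 8.42% of all genes, and of 17.2% and 10.3% for ERα17p, beside 9.56% and 8.82%. Each gene moves the share of a list of 29 by over 3 percentage points, so the counts do not set the list apart. The median differences were -0.02 and -0.04. Between the treated arrays 0 of the 29 passed 1.5-fold in either direction, beside 1.29% of all genes higher and 2.04% lower with ERα17p. The 5 others were not analysed here.

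Other IAP genes did not move as a group. BIRC6, a giant ubiquitin-conjugating IAP, had a median of -0.01 with estradiol, 0.12 with ERα17p and -0.95 with vehicle. Its difference was 0.95 for estradiol and 1.08 for ERα17p, with both probe sets higher. BIRC5, which encodes survivin of the mitotic chromosomal passenger complex, was at -0.49 and -0.50, below the fold used; its 4 probe sets were all lower with estradiol and 3 were lower with ERα17p. BIRC7 was at -0.36 and -0.18, and NAIP, better known as a sensor of bacterial proteins, at 0.28 and -0.04.

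The proteins that counter IAPs differed among themselves. XAF1, an interferon-inducible antagonist of XIAP, had a median of 0.59 with estradiol, 0.01 with ERα17p and -0.45 with vehicle. Its difference was 1.13 for estradiol and 0.46 for ERα17p, but 1 of its 3 probe sets was lower than vehicle in both, at -0.57 and -0.74. Set directly against estradiol, XAF1 with ERα17p was at -0.17, with probe sets from -0.67 to 0.21. The mitochondrial protease gene HTRA2 was at -0.46 and -0.53, and DIABLO, whose product SMAC binds IAPs after release from mitochondria, was at -0.02 and -0.16.

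Among other anti-apoptotic members of the BCL2 family, BCL2A1, a target of NF-kB in many cells, read 0.40 with estradiol, 0.53 with ERα17p and -0.19 with vehicle on 1 probe set. It was 0.59 higher for estradiol and 0.72 higher for ERα17p. BCL2L2, which encodes BCL-W, was at 0.30 and 0.68, and BCL2L10 at -0.18 and 0.04. Of the BH3-only genes, BMF, a protein that docks on motor complexes, was at 0.48 and 0.79, past 1.5-fold for ERα17p alone. On its 1 probe set ERα17p was 0.31 above estradiol, short of 1.5-fold, and 8.77% of all genes were as high or higher. Whether the treatments differ in BMF was not tested. BAD was at -0.43 and -0.58 with all 3 probe sets below vehicle, BIK at -0.02 and -0.36, and HRK at -0.05 and 0.13.

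The multidomain relatives BOK and BCL2L12 were at -0.48 and -0.58 for estradiol and at -0.61 and -0.59 for ERα17p. Both passed the fold for ERα17p only, but BCL2L12, on 1 probe set, lay close to that line in both comparisons. ERα17p minus estradiol was -0.13 in BOK and -0.01 in BCL2L12, short of the fold. The 2 BOK probe sets were at -0.68 and -0.27 for estradiol and at -1.03 and -0.18 for ERα17p. Only the lower value passed the fold in each comparison. Whether the treatments differ in these genes was not tested. BCL2L13 and BCL2L14 stayed between -0.14 and 0.14. CYCS, the gene of cytochrome c, was at -0.46 for estradiol and -0.75 for ERα17p. Its probe sets ran from -2.71 to 0.20 and from -2.11 to 0.14, so the gene value is uncertain. The gene has many pseudogene copies, and whether they affect those values was not tested. APAF1, CASP9 and CASP6 lay between -0.27 and 0.41.

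Of the regulators, USP9X, the deubiquitinase that spares MCL1 from the proteasome, was 1.11 higher for estradiol and 1.18 higher for ERα17p. All 4 of its probe sets were higher in both, but unevenly, from 0.11 to 1.91 and from 0.10 to 1.75. HUWE1 and FBXW7, ligase genes that mark MCL1 for removal, were at 0.14 and 0.29 for estradiol and at 0.30 and 0.00 for ERα17p. FOXO3, which drives BCL2L11 transcription in many cells, was at -0.58 and -0.23, with probe sets from -1.33 to 0.35 and from -0.62 to 0.42. ATF4 and DDIT3, factors of the stress response that can act on PMAIP1 and BCL2L11, were at -0.22 and -0.42 for estradiol and at -0.41 and -0.56 for ERα17p. MARCHF5, a ubiquitin ligase of the mitochondrial surface, was at 0.44 and 0.58, with probe sets from -0.28 to 1.16 and from 0.11 to 1.06.

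**Figure D3:**
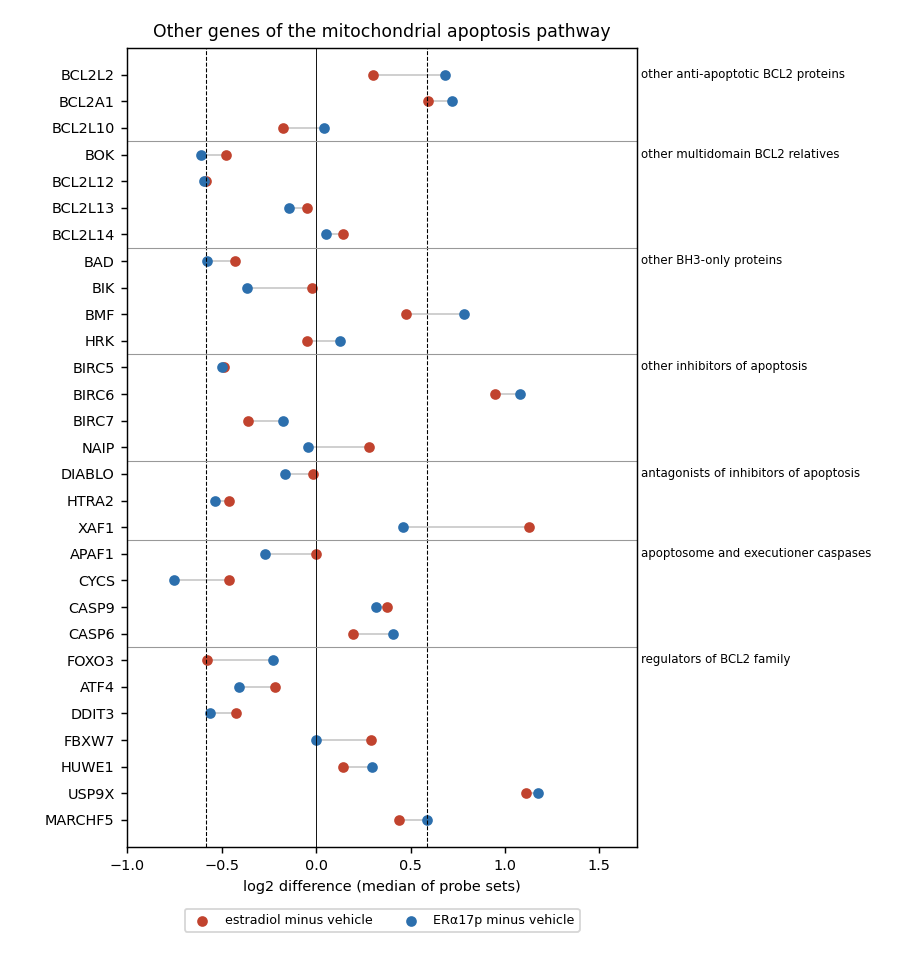
Log2 difference from vehicle (horizontal axis) for 29 other genes of the pathway, grouped by role; red points are estradiol minus vehicle, blue points ERα17p minus vehicle, and dashed lines 1.5-fold. BIRC6 and USP9X lie near 1 in both comparisons, XAF1 does so for estradiol, and most other genes lie within the dashed lines.

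The direction of a gene's difference from vehicle went with the length the gene spans in the genome. Across 19734 genes, Spearman's rho between span and difference was 0.154 for estradiol and 0.169 for ERα17p; all genes share the same arrays, so this is a description. In the 4934 genes of the shortest span, at most 8.85 kb, 7.07% were at least 1.5-fold higher and 10.9% lower for estradiol. In the 4934 genes spanning 65.5 kb or more these shares were 13.2% and 4.50%. For ERα17p they were 12.9% and 4.09% in the same genes. For ERα17p minus estradiol the rho was 0.037.

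BAX spans 6.92 kb and PMAIP1 4.31 kb, in the shortest of 4 equal groups with MCL1 and BAK1, while XIAP spans 54.3 kb, in the third group. BIRC6 and USP9X, at 261.9 kb and 151.1 kb, are in the longest. BAX and XIAP lay on the side that was commoner in their groups, and PMAIP1 lay on the rarer side of its own. The span is that of the gene and not of its transcript, and its part in the members' differences was not tested.

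**Figure D4:**
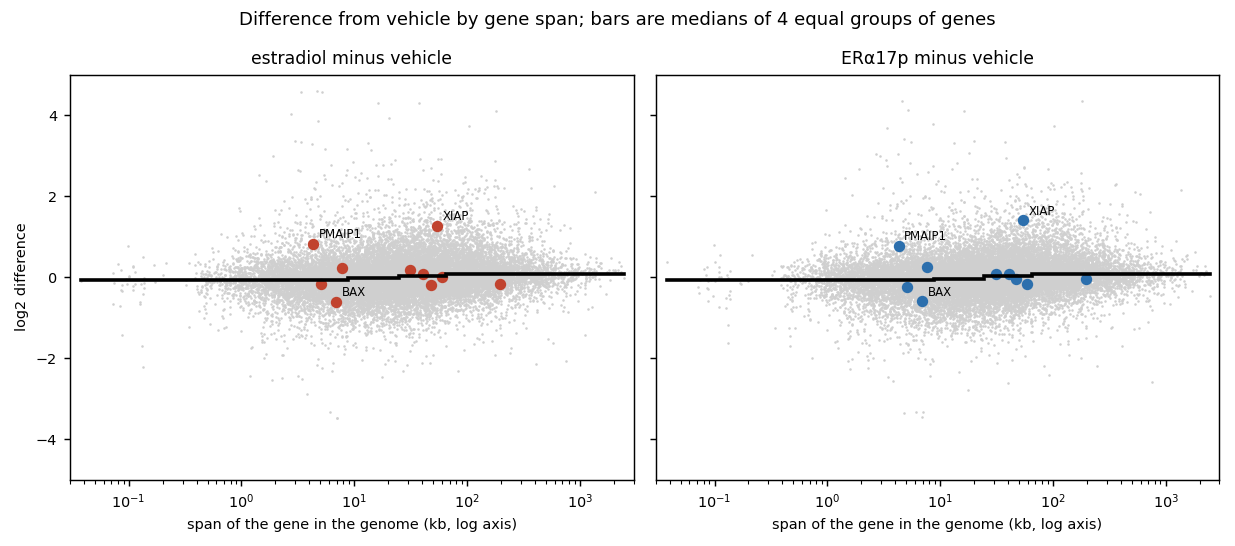
Log2 difference from vehicle (vertical axis) against the genomic span of each gene in kb (horizontal log axis) for 19734 genes (grey), with the 10 members coloured and the 3 past 1.5-fold named; black bars are the medians of 4 equal groups of genes by span. The bars climb from -0.06 to 0.08 in both panels. XIAP, PMAIP1 and BAX lie outside that range of medians, as do members that were not called, such as MCL1 and BAK1.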

How the data were processed

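RNA of MDA-MB-231 cells was measured on 3 Affymetrix HG-U133 Plus 2 arrays, 1 for each group. Per the submitters' processing notes the authors used RMA, which corrects background, normalises by quantiles and summarises probes; no version is stated. RMA output is on a log2 scale, so the deposited values were read as log2. They are also centred for each probe set on a level that is not described, and each array has a median of 0.

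Probe sets were named from the platform's annotation. Of 54675, 41097 had 1 symbol, 1801 had several and 11777 were unnamed, and only the first were used. The 10 members were matched to RefSeq genes of GRCh38.p14 by Entrez identifier, and 10 symbols were the same. Log2 differences between arrays were taken per probe set and their median per gene, with python 3.11.15 and pandas 2.3.3. With 1 array a group no p-value was computed. A gene was called at 1.5-fold, with 2-fold as an alternative.

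All members were described with each probe set. Of the pathway list every measured gene was named, and of the marker lists those past the fold and the rest of the mesenchymal-like list. The members and lists were chosen with earlier results of these data known. Mean of probe sets, quantile normalisation, mean centring and leaving out probe sets marked _s_at, _x_at or _a_at were tried. Against-reference values and differences of gene medians were added after seeing the data. The scripts were tested on simulated data, made by adding known shifts to shuffled differences between the treated arrays. Probe sets of 1 gene spread less in that comparison (standard deviation 0.300) than against vehicle (0.548 for estradiol and 0.507 for ERα17p). The test therefore does not show how calls against vehicle perform.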

Additional observations from a re-analysis of the deposited data

How the results depend on the processing

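Of the 10 members XIAP stayed past 1.5-fold in both comparisons with vehicle under every alternative that kept the vehicle array: from 0.94 to 1.33 for estradiol and from 1.09 to 1.40 for ERα17p. PMAIP1 did too where it had probe sets, at 0.63 or more. Members called lower numbered 0 after quantile normalisation in both comparisons, 2 without marked probe sets in both, where BAX and PMAIP1 have none and 8 members remain, and 2 with the mean of probe sets for ERα17p, where MCL1 joined at -0.62. Of all genes, 6.27% and 7.53% were lower after quantile normalisation for estradiol and ERα17p. Without marked probe sets the shares were 8.52% and 8.84%, and with the mean of probe sets 8.66% for ERα17p. At 2-fold 1 member was higher and 0 lower in both. Read from the deposited reference level, without the vehicle array, 0 members were called in either direction. Few genes were called there at all: 1.28% higher and 0.516% lower for estradiol, and 0.496% and 0.632% for ERα17p. Among pathway genes, those higher for estradiol numbered 2 at 2-fold and 1 against the reference, and those lower 2 with the mean of probe sets and 2 with mean centring. The shares of all genes were 3.94% and 1.28% higher, and 8.46% and 9.14% lower. For ERα17p those higher numbered 2 at 2-fold, 3 without marked probe sets and 0 against the reference, and those lower 0, 1 and 0. Beside these, 3.34%, 9.34% and 0.496% of all genes were higher, and 2.48%, 8.84% and 0.632% lower. For ERα17p minus estradiol 0 pathway genes were called in either direction in the main setting. Quantile normalisation gave 1 higher and 1 lower, beside 3.25% and 4.55% of all genes. Without marked probe sets 6 of 8 members kept their sign for estradiol, 6 of 8 for ERα17p and 5 of 8 for ERα17p minus estradiol. Against the reference 5 of 10 did for ERα17p. Of 164 single values of a member, 153 moved by less than the spread between probe sets of 1 gene and 0 that were called changed sign. No paired analysis was possible because each group has 1 array. Signal over background is unknown, and a member's probe set may lie near the limit of detection.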
